A study of Mus musculus with 15 samples.

Results

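Endothelial-to-hematopoietic transition (EHT) is the step in which specialised endothelial cells, the hemogenic endothelium, lose their endothelial character and become blood progenitors. The genes described here encode 10 transcription factors known for that step, *Runx1*, *Gfi1*, *Gfi1b*, *Tal1*, *Lmo2*, *Lyl1*, *Fli1*, *Erg*, *Gata2* and *Myb*. They were chosen by name for this role, and all 10 have a row among the 17454 genes of the expression table. RNA was sequenced from erythro-myeloid progenitors (EMPs), the yolk sac (YS) progenitors of red cells, megakaryocytes and myeloid cells, sorted from C57BL/6 embryos at E10.5 as LIN− SCA1− KIT+ CD41+ CD16/32+ cells. All embryos carried Ezh2fl/fl, from which Cre removes the exons of the catalytic SET domain of EZH2, the enzyme of polycomb repressive complex 2 that methylates histone H3 at lysine 27. Tie2-Ezh2-KO embryos (5 libraries) were also Tie2-Cre Tg/+, a Cre active in endothelium and in what descends from it. Vav-Ezh2-KO embryos (5 libraries) were Vav-Cre Tg/+ (Vav-iCre in the methods), a Cre active in hematopoietic cells. The 3 Tie2-Ezh2-WT and 2 Vav-Ezh2-WT libraries came from Ezh2fl/fl embryos whose Cre genotype is written +/+, wild type without the transgene, and together they are the 5 WT libraries. No WT library carries a Cre, so the presence of a Cre and the loss of *Ezh2* cannot be told apart. Each library came from an individual YS, with 500 cells according to the labels and fewer according to the methods. The independent experiments were not assigned to libraries, so no batch term could be fitted.

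RUNX1 is required for blood progenitors to leave hemogenic endothelium, and among its direct targets are the genes of the repressors GFI1 and GFI1B, which silence endothelial genes through the demethylase LSD1. TAL1 or its relative LYL1 binds DNA with E proteins and is joined to GATA factors by the bridging protein LMO2, while the ETS factors FLI1 and ERG occupy many of the same regulatory regions. GATA2 acts from hemogenic endothelium to early progenitors, and MYB maintains the progenitors of definitive hematopoiesis.

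Levels are given in RPKM, reads scaled to the length of the gene in kilobases and to the reads that the library has on genes, so that levels of different genes can be set side by side. Values are listed by replicate, in the order 4, 10 and 12 for Tie2-Ezh2-WT, 4 and 6 for Vav-Ezh2-WT, 7, 9, 11, 13 and 17 for Tie2-Ezh2-KO, and 1, 9, 10, 26 and 28 for Vav-Ezh2-KO. Depth, the reads on genes recovered from the RPKM values, was 10407398, 15811738 and 41025074 in Tie2-Ezh2-WT and 14890780 and 19957939 in Vav-Ezh2-WT. It was 15934827, 15284308, 14818723, 26825709 and 16091836 in Tie2-Ezh2-KO, and 28243857, 18418304, 16855049, 11506895 and 28714656 in Vav-Ezh2-KO. Tie2-Ezh2-WT replicate 12 was the deepest library and Tie2-Ezh2-WT replicate 4 the shallowest.

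Differences are differences of mean log2(RPKM + 0.2). They were tested with limma over every gene that exceeded 0.2 RPKM in 1 or more of the libraries compared, with p adjusted over all of these genes by the Benjamini-Hochberg method, and a gene under 0.05 is called. Single genes also went through an exact permutation test, two-sided, over the 252 ways to divide 10 libraries into 5 and 5. Its smallest possible p is 0.00794.

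*Ezh2* itself (chr6:47530274-47595270, build GRCm38) was measured at 36.9, 39.5 and 30.1 RPKM in Tie2-Ezh2-WT and 42.0 and 41.5 in Vav-Ezh2-WT. *Ezh2* stood at 27.8, 26.2, 24.8, 29.5 and 26.5 RPKM in Tie2-Ezh2-KO and 33.7, 42.4, 37.8, 38.1 and 34.0 in Vav-Ezh2-KO. Every Tie2-Ezh2-KO library was below every WT and every Vav-Ezh2-KO library, while Vav-Ezh2-KO overlapped WT. In Tie2-Ezh2-KO the mean fell to 27.0 ± 1.78 RPKM (SD, n = 5) from 38.0 ± 4.84 in WT, a log2 difference of -0.48 (SE 0.12, 95% interval -0.74 to -0.23, limma adjusted p = 0.0418, 5 of 5 libraries below all of the other group, exact permutation p = 0.00794). In Vav-Ezh2-KO the mean was 37.2 ± 3.56, a difference from WT of -0.02 (SE 0.11, 95% interval -0.25 to 0.21, limma adjusted p = 0.969, 0 of 5 libraries below all of the other group). Between the knockouts *Ezh2* differed by -0.46 (SE 0.11, 95% interval -0.69 to -0.23, limma adjusted p = 0.0269, 5 of 5 libraries below all of the other group). The call against WT was kept under 11 of 22 alternative settings and lost without replicate 4 or 10 of Tie2-Ezh2-WT, 4 or 6 of Vav-Ezh2-WT, or 7, 11 or 17 of Tie2-Ezh2-KO, each left out alone (limma adjusted p 0.0760 to 0.126). *Ezh2* also lost the call against WT with limma-voom and eBayes without trend (log2 -0.48 to -0.46, limma adjusted p 0.0818 to 0.0923), without the 2 libraries with high visceral endoderm markers (log2 -0.50, limma adjusted p = 0.137), and with WT of its own Cre line only (log2 -0.39, limma adjusted p = 0.344). The call between the knockouts was kept under 13 of 21 and lost without replicate 7, 11 or 17 of Tie2-Ezh2-KO, or 9, 10 or 26 of Vav-Ezh2-KO, each left out alone (limma adjusted p 0.0571 to 0.0784). *Ezh2* also lost the call between the knockouts with eBayes without trend (log2 -0.46, limma adjusted p = 0.0695), and with each knockout set against WT of its own Cre line (log2 -0.22, limma adjusted p = 0.972). Reads on all exons are counted together, so the value does not show whether the SET domain exons were deleted. The paper reports, from PCR on the deleted exon, that its RNA was lost in E10.5 YS EMPs of both knockouts.

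All 6 EMP markers (*Kit*, *Itga2b*, *Fcgr3*, *Fcgr2b*, *Ptprc* and *Csf2rb*) were detected in every library. Together they summed to 181, 228 and 229.9 RPKM in Tie2-Ezh2-WT and 222 and 185 in Vav-Ezh2-WT, and to 157, 132, 174, 167 and 185 in Tie2-Ezh2-KO and 211, 297, 145, 211 and 188 in Vav-Ezh2-KO. The groups overlapped, though in Tie2-Ezh2-KO only replicate 17 was not below every WT library. *Fcgr3*, a gene of the CD16/32 antigens, was the most abundant in all 15 libraries. *Itga2b* (CD41) and *Kit* came next by mean, with *Itga2b* above *Kit* in 9 of 15 libraries. All 6 markers had a log2 difference below 0 in Tie2-Ezh2-KO against WT. For *Fcgr3* it was -0.47 (limma adjusted p = 0.131, 4 of 5 libraries below all of the other group, exact permutation p = 0.0317). Of the EMP markers limma called 0 of 6 tested in Tie2-Ezh2-KO against WT, 0 of 6 in Vav-Ezh2-KO against WT and 0 of 6 between the knockouts (all genes 2.73%, 0.00733% and 3.51%, unadjusted p under 0.05 for 3, 0 and 2, all genes 11%, 7.93% and 16.6%, called by limma-voom 0, 0 and 0, median log2 difference -0.39, -0.05 and -0.48, all genes 0.01, -0.02 and 0.04).

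Between the knockouts limma called 2 of the 10 factors, the repressors *Gfi1* and *Gfi1b*, beside 3.51% of all genes (495 of 14120). *Gfi1* RNA was nearly absent from Vav-Ezh2-KO EMPs, with 0 to 4 reads a library, and lay within or above the WT range in Tie2-Ezh2-KO EMPs. *Gfi1b* was higher in every Tie2-Ezh2-KO than in every Vav-Ezh2-KO library. Neither call was kept when each knockout was set against WT of its own Cre line (log2 2.12 and 0.56, limma adjusted p = 0.232 and 0.667), and that of *Gfi1b* was lost under 10 of 21 alternatives in all. *Tal1* passed the exact permutation test for the gene alone (log2 -0.46, p = 0.0159), as 15% of all genes did, but not correction over all genes. Its log2 difference was -0.0684 when each knockout was set against WT of its own Cre line. None of the 10 factors differed from WT past correction over all genes in either knockout. All 10 members passed the filter in every comparison.

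In Tie2-Ezh2-KO against WT, with the Cre active from the endothelial stage onward, limma called 0 of 10 members, where 2.73% of all genes tested (386 of 14154) were called, 2.42% higher and 0.304% lower. Unadjusted p was under 0.05 for 1 member, *Gfi1b*, beside 11% of all genes. The exact permutation test passed 0 members at an unadjusted p under 0.05 (10.2% of all genes), and limma-voom, run on the recovered reads and chosen after seeing the data, called 0. Of all 14154 genes limma-voom called 311 higher and 26 lower. No member had groups that did not overlap, where 4.01% of all genes had (3.29% higher and 0.714% lower). The median log2 difference of the members was -0.14, beside 0.01 over all genes, with 2 above 0 and 8 below.

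In Vav-Ezh2-KO against WT, with the Cre active in hematopoietic cells, limma called 0 of 10 members, where 0.00733% of all genes (1 of 13646) were called. Unadjusted p was under 0.05 for 2 members, *Gfi1* and *Gata2*, beside 7.93% of all genes, and limma-voom called 0 (0 of all 13646 genes). The exact permutation test passed 1 member, *Gfi1* (7.3% of all genes). *Gfi1* was also the only member whose groups did not overlap, being lower, where 1.41% of all genes did not (0.601% higher and 0.806% lower). The median log2 difference of the members was -0.08, beside -0.02 over all genes, with 4 above 0 and 6 below. Both comparisons with WT share the same 5 WT libraries.

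Tie2-Ezh2-KO against Vav-Ezh2-KO needs no WT library, but the 2 knockouts also differ in Cre line. The line itself and the cells in which its Cre was active cannot be told apart in this comparison. Here limma called 2 of 10 members, *Gfi1* and *Gfi1b*, both higher in Tie2-Ezh2-KO, where 3.51% of all genes (495 of 14120) were called, 2.63% higher and 0.871% lower. Of all called genes 372 were higher and 123 lower (334 and 191 after quantile normalization). Limma-voom called the same number of members, 2, and of all 14120 genes 366 higher and 111 lower. Its counts over all genes in the 3 comparisons also stand beside those of every list given here. Unadjusted p was under 0.05 for 3 members between the knockouts, beside 16.6% of all genes. The groups of *Gfi1* and *Gfi1b* did not overlap, where 5.23% of all genes did not (3.56% higher and 1.67% lower). An exact permutation p under 0.05 was reached by 3 members, the third being *Tal1*, beside 15% of all genes. The median log2 difference of the members was -0.11, beside 0.04 over all genes, with 3 above 0 and 7 below. In bulk samples, fewer cells that express a gene and less RNA of it per cell cannot be told apart.

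*Runx1* (chr16:92601466-92826074), the factor without which the transition does not proceed, was measured at 9.49, 9.94 and 8.04 RPKM in Tie2-Ezh2-WT and 11.2 and 10.1 in Vav-Ezh2-WT. *Runx1* stood at 8.69, 6.54, 7.11, 10.7 and 9.68 RPKM in Tie2-Ezh2-KO and 10.8, 10.9, 6.92, 11.3 and 8.45 in Vav-Ezh2-KO. Both knockouts overlapped WT, with replicates 9 and 11 of Tie2-Ezh2-KO and 10 of Vav-Ezh2-KO below every WT library. *Runx1* had a log2 difference of -0.20 in Tie2-Ezh2-KO against WT (SE 0.17, 95% interval -0.57 to 0.17, limma adjusted p = 0.841, 2 of 5 libraries below all of the other group). *Runx1* in Vav-Ezh2-KO had one of -0.03 against WT (SE 0.16, 95% interval -0.37 to 0.31, limma adjusted p = 0.976, 1 of 5 libraries below all of the other group). Between the knockouts *Runx1* had one of -0.17 (SE 0.19, 95% interval -0.58 to 0.23, limma adjusted p = 0.709, 1 of 5 libraries below all of the other group). One value per gene does not separate the transcripts of the distal and proximal *Runx1* promoters.

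*Gfi1* (chr5:107716655-107725805), a repressor that RUNX1 switches on in hemogenic endothelium, was measured at 0.186, 0.448 and 0.847 RPKM in Tie2-Ezh2-WT (6, 22 and 108 reads) and 0.454 and 1.03 in Vav-Ezh2-WT (21 and 64 reads). Tie2-Ezh2-KO libraries had 1.25, 0.421, 0.261, 0.324 and 0.580 RPKM, from 62, 20, 12, 27 and 29 reads. Vav-Ezh2-KO libraries had 0.0342, 0, 0.0573, 0 and 0.0448 RPKM, from 3, 0, 3, 0 and 4 reads. All 5 Vav-Ezh2-KO libraries were below all WT and all Tie2-Ezh2-KO libraries, and Tie2-Ezh2-KO replicate 7 was the highest of all 15. No Vav-Ezh2-KO library exceeded the 0.2 RPKM of the filter, which *Gfi1* passed through the libraries set against them. Where no read was found, the upper counting limit is 3 reads, which is 0.0524 RPKM in replicate 9 and 0.0839 RPKM in replicate 26.

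Over the Vav-Ezh2-KO libraries together *Gfi1* had 10 reads of 103738761, and over WT 221 of 102092929. That is a rate 22.5 times lower in Vav-Ezh2-KO (95% exact counting interval 12 to 47.5). The Tie2-Ezh2-KO libraries had 150 reads of 88955403, a rate 17.5 times that of Vav-Ezh2-KO (9.25 to 37.2). These intervals and the limits at 0 reads cover counting error only and leave out the spread between libraries. Reads copied by PCR are not independent molecules, so they can be too narrow even for counting error. Of the 221 WT reads 108 came from Tie2-Ezh2-WT replicate 12, the deepest library.

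Between the knockouts *Gfi1* was higher in Tie2-Ezh2-KO by a log2 of 1.63 (SE 0.32, 95% interval 0.96 to 2.31, limma adjusted p = 0.00906, 5 of 5 libraries above all of the other group, exact permutation p = 0.00794). The call was kept under 19 of 20 alternatives (limma adjusted p 0.00348 to 0.232), among them all 10 that left out 1 library and the fit with no filter on low values (0.0133). It was lost when each knockout was set against the WT libraries of its own Cre line (log2 2.12, limma adjusted p = 0.232). In Vav-Ezh2-KO against WT the log2 difference was -1.70 (SE 0.32, 95% interval -2.37 to -1.02, limma adjusted p = 0.203, 5 of 5 libraries below all of the other group), past the exact permutation test (p = 0.00794) but not past correction over all genes under any alternative (limma adjusted p 0.0914 to 0.504). In Tie2-Ezh2-KO against WT it was -0.06 (SE 0.39, 95% interval -0.89 to 0.77, limma adjusted p = 0.986, 0 of 5 libraries below all of the other group). With so few reads the fitted size depends on the value added before the logarithm. Between the knockouts it was 0.58 when 1 was added, 2.87 when 0.05 was added and 4.04 with limma-voom. *Gfi1* and *Erg* are not tested when only genes with a mean above 1 RPKM are kept.

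*Gfi1b* (chr2:28609450-28621982), the paralog that acts in emerging blood cells and stays on in erythroid and megakaryocytic cells, was measured at 194, 227 and 199 RPKM in Tie2-Ezh2-WT and 252 and 168 in Vav-Ezh2-WT. *Gfi1b* stood at 299.9, 331, 283, 202 and 217 RPKM in Tie2-Ezh2-KO and 191, 175, 177, 188 and 154 in Vav-Ezh2-KO. All 5 Tie2-Ezh2-KO libraries were above all 5 Vav-Ezh2-KO libraries. Replicates 7, 9 and 11 of Tie2-Ezh2-KO were above every WT library, and replicates 13 and 17 were inside the WT range. The mean was 267 ± 55.2 RPKM (SD, n = 5) in Tie2-Ezh2-KO and 177 ± 14.9 in Vav-Ezh2-KO, with WT between them at 208 ± 32.5. Between the knockouts the log2 difference was 0.57 (SE 0.13, 95% interval 0.28 to 0.86, limma adjusted p = 0.0300, 5 of 5 libraries above all of the other group, exact permutation p = 0.00794). *Gfi1b* in Tie2-Ezh2-KO had a difference of 0.35 against WT (SE 0.15, 95% interval 0.03 to 0.66, limma adjusted p = 0.375, 3 of 5 libraries above all of the other group, exact permutation p = 0.0873). In Vav-Ezh2-KO against WT it was -0.22 (SE 0.11, 95% interval -0.45 to 0.01, limma adjusted p = 0.644, 1 of 5 libraries below all of the other group).

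The *Gfi1b* call between the knockouts was kept under 11 of 21 alternatives, with a log2 size between 0.48 and 0.66 in all of them (limma adjusted p 0.00815 to 0.667). It was lost without replicate 7 or 11 of Tie2-Ezh2-KO, or 1, 9, 10 or 28 of Vav-Ezh2-KO, each left out alone (limma adjusted p 0.0506 to 0.0833). It was also lost with no filter on low values (limma adjusted p = 0.0605), a common median (0.255), eBayes without trend (0.101) and the WT libraries of each Cre line (log2 0.56, limma adjusted p = 0.667).

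The 3 globin genes listed as markers of primitive erythroid cells, the first red cells of the YS, were *Hbb-bh1*, *Hba-x* and *Hbb-y*. In the same comparison limma called *Hbb-bh1* and *Hba-x* and not *Hbb-y* (log2 0.36, limma adjusted p = 0.780). In WT *Hbb-bh1* averaged 114 RPKM, beside 1.36 for *Hba-x* and 2.50 for *Hbb-y*. Whether these RNAs came from primitive erythroid cells or from the EMPs was not tested. The 3 genes *Hbb-bh1*, *Hba-x* and *Hbb-y* summed to 309, 585, 855, 192 and 284 RPKM in Tie2-Ezh2-KO and to 85.0, 121, 59.9, 155 and 152 in Vav-Ezh2-KO. In WT they summed to 139.6, 126 and 142 in Tie2-Ezh2-WT and 65.2 and 118 in Vav-Ezh2-WT. All 5 Tie2-Ezh2-KO sums were above all others. The 3 highest were in the libraries with the highest *Gfi1b*, replicates 7, 9 and 11, though not in the same order. In WT the library with the highest *Gfi1b* (252 RPKM, Vav-Ezh2-WT replicate 4) had the lowest sum (65.2 RPKM). *Hbb-bh1* was the most abundant of the 3 genes in 14 of 15 libraries (*Hba-x* in Tie2-Ezh2-KO replicate 9), and none was at 0 in any library. Markers of visceral endoderm, the outer layer of the YS, summed to 191, 10.4, 5.00, 5.2 and 11.7 RPKM in Tie2-Ezh2-KO and to 2.32, 5.24, 3.56, 3.05 and 1.83 in Vav-Ezh2-KO. They were highest in Tie2-Ezh2-KO replicate 7, which also had the highest *Gfi1*. Tie2-Ezh2-WT replicate 4, with the next highest sum (129 RPKM), had the lowest *Gfi1* of the WT and Tie2-Ezh2-KO libraries (0.186 RPKM). Without Tie2-Ezh2-KO replicate 7 the *Gfi1* difference between the knockouts was 1.37 (limma adjusted p = 0.0159). Any part of primitive erythroid or visceral endoderm cells in the *Gfi1* and *Gfi1b* differences between these LIN− sorted cells was not tested.

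**Figure D1:**
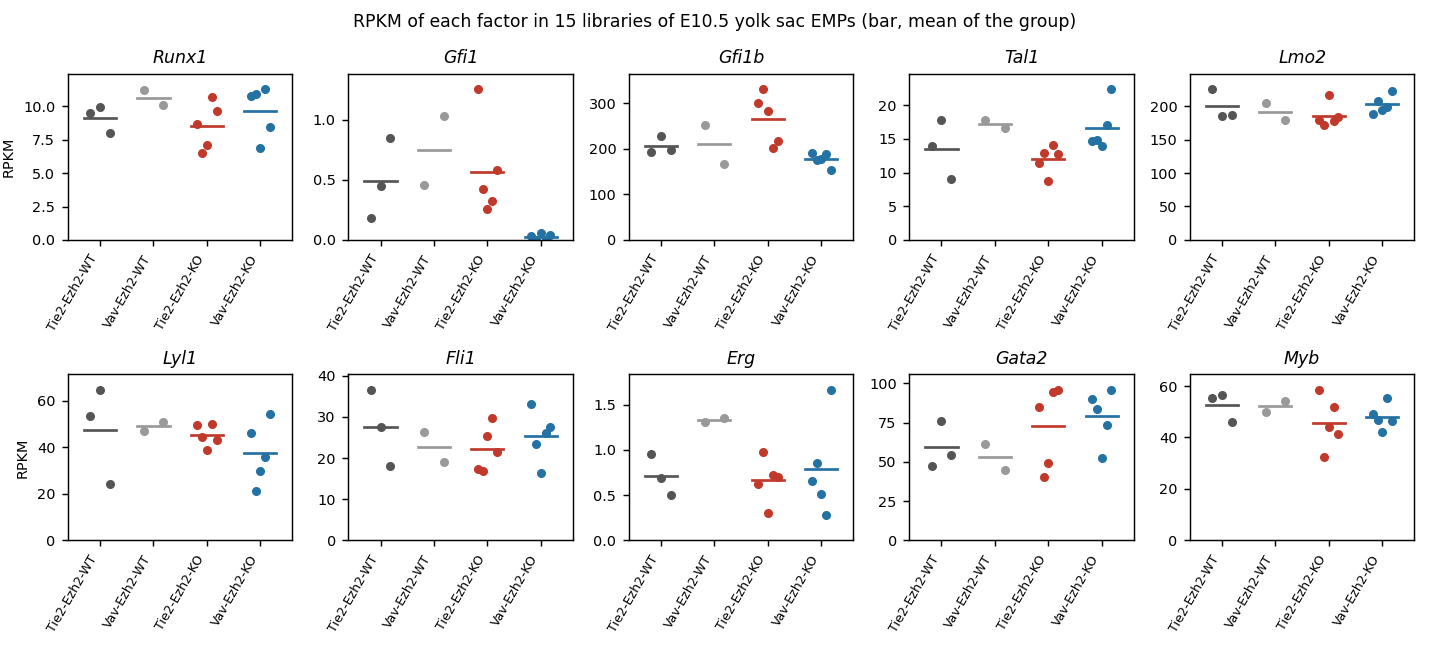
RPKM of the 10 factors in each of the 15 libraries, by group (1 point a library, the bar is the group mean, each axis starts at 0). *Gfi1* lies between 0 and 0.0573 RPKM in Vav-Ezh2-KO and between 0.261 and 1.25 in Tie2-Ezh2-KO, and *Gfi1b* between 154 and 191 in Vav-Ezh2-KO and between 202 and 331 in Tie2-Ezh2-KO.

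*Tal1* (chr4:115056426-115071755), the basic helix-loop-helix factor that specifies hemogenic endothelium, was measured at 13.9, 17.8 and 8.99 RPKM in Tie2-Ezh2-WT and 17.8 and 16.6 in Vav-Ezh2-WT. *Tal1* stood at 11.4, 12.8, 8.76, 14.1 and 12.7 RPKM in Tie2-Ezh2-KO and 14.8, 14.8, 14.0, 17.1 and 22.4 in Vav-Ezh2-KO. Tie2-Ezh2-WT replicate 12 was low among WT, Vav-Ezh2-KO replicate 28 was the highest library, and 4 of 5 Tie2-Ezh2-KO libraries were below all Vav-Ezh2-KO libraries. *Tal1* had a log2 difference of -0.30 in Tie2-Ezh2-KO against WT (SE 0.20, 95% interval -0.72 to 0.13, limma adjusted p = 0.729, 1 of 5 libraries below all of the other group). *Tal1* in Vav-Ezh2-KO had one of 0.16 against WT (SE 0.19, 95% interval -0.24 to 0.56, limma adjusted p = 0.851, 1 of 5 libraries above all of the other group). Between the knockouts *Tal1* had one of -0.46 (SE 0.17, 95% interval -0.82 to -0.10, limma adjusted p = 0.161, 4 of 5 libraries below all of the other group). The last passed the exact permutation test for the gene alone (p = 0.0159) but not correction over all genes. With each knockout set against WT of its own Cre line, the *Tal1* difference between the knockouts was -0.0684.

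*Lmo2* (chr2:103957903-103981878), the bridge between TAL1 and GATA factors, was the steadiest member, with a ratio of 1.32 between its highest and lowest library. It was measured at 225, 186 and 187 RPKM in Tie2-Ezh2-WT and 204 and 179 in Vav-Ezh2-WT. *Lmo2* stood at 179.7, 171, 217, 177 and 184 RPKM in Tie2-Ezh2-KO and 189, 207, 195, 199 and 223 in Vav-Ezh2-KO. All groups overlapped, and Tie2-Ezh2-KO replicate 11 stood above the other 4 of its group. *Lmo2* had a log2 difference of -0.08 in Tie2-Ezh2-KO against WT (SE 0.10, 95% interval -0.29 to 0.14, limma adjusted p = 0.899, 2 of 5 libraries below all of the other group). *Lmo2* in Vav-Ezh2-KO had one of 0.05 against WT (SE 0.08, 95% interval -0.13 to 0.23, limma adjusted p = 0.909, 0 of 5 libraries above all of the other group). Between the knockouts *Lmo2* had one of -0.13 (SE 0.09, 95% interval -0.33 to 0.08, limma adjusted p = 0.566, 4 of 5 libraries below all of the other group).

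*Lyl1* (chr8:84701423-84704716), a relative of *Tal1* that overlaps with it in progenitors, was measured at 53.5, 64.8 and 24.4 RPKM in Tie2-Ezh2-WT and 47.1 and 50.8 in Vav-Ezh2-WT. *Lyl1* stood at 49.5, 44.2, 38.8, 50.1 and 43.2 RPKM in Tie2-Ezh2-KO and 46.0, 21.0, 29.8, 35.9 and 54.4 in Vav-Ezh2-KO. WT held the highest library of all and, in Tie2-Ezh2-WT replicate 12, one of the lowest, while Tie2-Ezh2-KO was narrow and all groups overlapped. *Lyl1* had a log2 difference of -0.03 in Tie2-Ezh2-KO against WT (SE 0.20, 95% interval -0.46 to 0.41, limma adjusted p = 0.991, 0 of 5 libraries below all of the other group). *Lyl1* in Vav-Ezh2-KO had one of -0.37 against WT (SE 0.26, 95% interval -0.93 to 0.19, limma adjusted p = 0.745, 1 of 5 libraries below all of the other group). Between the knockouts *Lyl1* had one of 0.34 (SE 0.20, 95% interval -0.10 to 0.77, limma adjusted p = 0.446, 0 of 5 libraries above all of the other group).

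*Fli1* (chr9:32422204-32543432), an ETS factor active from the precursors of both blood and endothelium, was measured at 36.6, 27.5 and 18.2 RPKM in Tie2-Ezh2-WT and 26.2 and 19.1 in Vav-Ezh2-WT. *Fli1* stood at 17.2, 16.7, 25.4, 29.7 and 21.3 RPKM in Tie2-Ezh2-KO and 33.1, 23.5, 16.4, 26.2 and 27.5 in Vav-Ezh2-KO. All groups overlapped, and WT was the widest. *Fli1* had a log2 difference of -0.19 in Tie2-Ezh2-KO against WT (SE 0.21, 95% interval -0.63 to 0.25, limma adjusted p = 0.885, 2 of 5 libraries below all of the other group). *Fli1* in Vav-Ezh2-KO had one of 0.00 against WT (SE 0.20, 95% interval -0.43 to 0.43, limma adjusted p = 0.998, 0 of 5 libraries above all of the other group). Between the knockouts *Fli1* had one of -0.19 (SE 0.20, 95% interval -0.61 to 0.22, limma adjusted p = 0.687, 0 of 5 libraries below all of the other group).

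*Erg* (chr16:95359169-95586600), the ETS factor of endothelium and stem cells, was low in all groups. It was measured at 0.955, 0.686 and 0.506 RPKM in Tie2-Ezh2-WT and 1.30 and 1.36 in Vav-Ezh2-WT. *Erg* stood at 0.624, 0.975, 0.305, 0.724 and 0.702 RPKM in Tie2-Ezh2-KO and 0.656, 0.858, 0.509, 0.275 and 1.67 in Vav-Ezh2-KO. These values rest on 7 to 106 reads a library. Both Vav-Ezh2-WT libraries were above the Tie2-Ezh2-WT libraries, and Vav-Ezh2-KO held both the highest and the lowest library. *Erg* had a log2 difference of -0.41 in Tie2-Ezh2-KO against WT (SE 0.32, 95% interval -1.10 to 0.28, limma adjusted p = 0.814, 1 of 5 libraries below all of the other group). *Erg* in Vav-Ezh2-KO had one of -0.31 against WT (SE 0.36, 95% interval -1.09 to 0.46, limma adjusted p = 0.851, 1 of 5 libraries below all of the other group). Between the knockouts *Erg* had one of -0.10 (SE 0.37, 95% interval -0.88 to 0.69, limma adjusted p = 0.932, 0 of 5 libraries below all of the other group).

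*Gata2* (chr6:88193891-88207032), the GATA factor of hemogenic endothelium and early progenitors, was measured at 47.4, 76.2 and 54.5 RPKM in Tie2-Ezh2-WT and 61.2 and 44.6 in Vav-Ezh2-WT. *Gata2* stood at 84.9, 40.2, 49.3, 94.5 and 96.2 RPKM in Tie2-Ezh2-KO and 90.4, 83.7, 52.4, 73.5 and 95.6 in Vav-Ezh2-KO. In each knockout 3 of 5 libraries were above every WT library, and Tie2-Ezh2-KO replicate 9 was below every WT library. *Gata2* had a log2 difference of 0.30 in Tie2-Ezh2-KO against WT (SE 0.23, 95% interval -0.20 to 0.80, limma adjusted p = 0.810, 3 of 5 libraries above all of the other group). *Gata2* in Vav-Ezh2-KO had one of 0.47 against WT (SE 0.17, 95% interval 0.11 to 0.83, limma adjusted p = 0.544, 3 of 5 libraries above all of the other group). Between the knockouts *Gata2* had one of -0.17 (SE 0.24, 95% interval -0.68 to 0.34, limma adjusted p = 0.773, 2 of 5 libraries below all of the other group). In Vav-Ezh2-KO against WT the unadjusted limma p was 0.0135 and the exact permutation p 0.0635, and over the alternatives the limma adjusted p ran from 0.446 to 0.869.

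*Myb* (chr10:21124930-21160984), on which definitive progenitors depend, was measured at 55.5, 56.7 and 45.9 RPKM in Tie2-Ezh2-WT and 50.1 and 54.0 in Vav-Ezh2-WT. *Myb* stood at 58.6, 32.5, 44.2, 51.9 and 41.4 RPKM in Tie2-Ezh2-KO and 49.3, 46.7, 42.0, 55.5 and 46.4 in Vav-Ezh2-KO. WT was narrow, Tie2-Ezh2-KO held both the highest and the lowest library, and 3 of its 5 libraries were below every WT library. *Myb* had a log2 difference of -0.22 in Tie2-Ezh2-KO against WT (SE 0.14, 95% interval -0.53 to 0.09, limma adjusted p = 0.719, 3 of 5 libraries below all of the other group). *Myb* in Vav-Ezh2-KO had one of -0.13 against WT (SE 0.10, 95% interval -0.33 to 0.07, limma adjusted p = 0.759, 1 of 5 libraries below all of the other group). Between the knockouts *Myb* had one of -0.09 (SE 0.15, 95% interval -0.40 to 0.22, limma adjusted p = 0.809, 2 of 5 libraries below all of the other group).

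**Figure D2:**
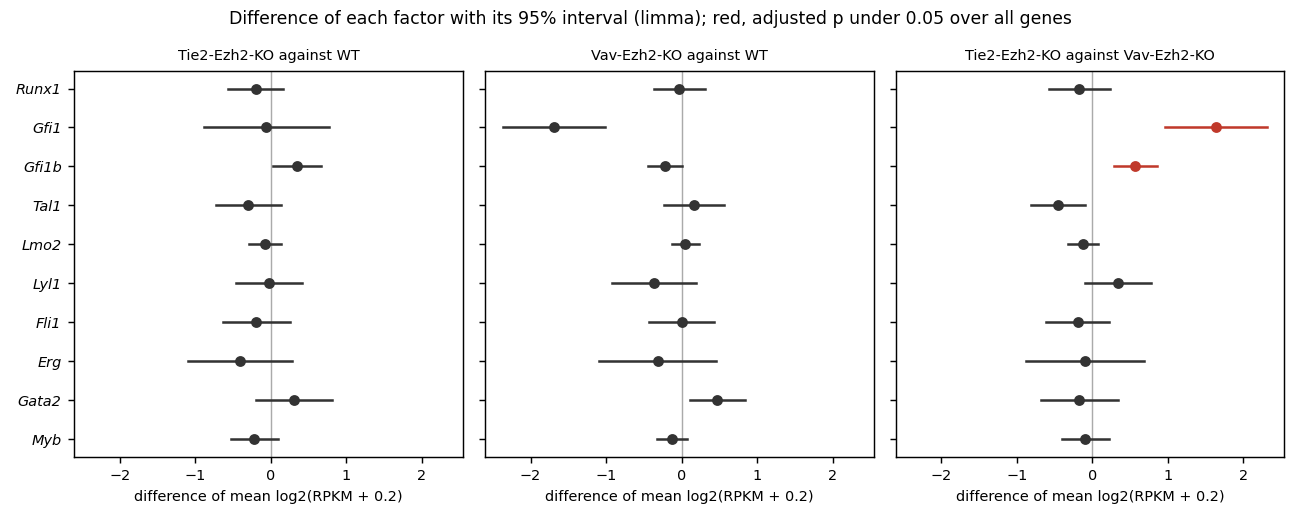
Log2 difference of the 10 factors in 3 comparisons, with 95% limma intervals (red, adjusted p under 0.05 over all genes tested). Between the knockouts *Gfi1* (1.63) and *Gfi1b* (0.57) are red, and in the comparisons with WT, which share the 5 WT libraries, no member is, the largest difference being that of *Gfi1* in Vav-Ezh2-KO (-1.70).

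By mean RPKM in WT the members ran from *Gfi1b* (208) and *Lmo2* (196) through *Gata2* (56.8), *Myb* (52.4), *Lyl1* (48.1), *Fli1* (25.5), *Tal1* (15) and *Runx1* (9.76) to *Erg* (0.962) and *Gfi1* (0.593). Among neighbours in this order, the ranges over the 5 WT libraries did not overlap between *Lmo2* and *Gata2*, between *Fli1* and *Tal1* and between *Runx1* and *Erg*. The ranges of the other neighbours overlapped, although *Lyl1* was above *Fli1* and *Tal1* above *Runx1* in each of the 5 WT libraries. *Gfi1b* and *Lmo2*, *Gata2* and *Myb*, *Myb* and *Lyl1*, and *Erg* and *Gfi1* changed order from library to library and did not differ beyond their spread. Tie2-Ezh2-KO had the same order of means. In Vav-Ezh2-KO *Lmo2* (203) was above *Gfi1b* (177), and the other 8 kept their places. Between the WT groups *Runx1* and *Erg* (2 of 10 members) did not overlap, both higher in Vav-Ezh2-WT, where 26.0% of 13100 genes did not. With 3 libraries against 2 the exact test cannot reach 0.05.

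With the mean of each of the 4 groups subtracted, the genes whose variation over the 15 libraries was most like that of *Runx1* were *Cnp* (Pearson r 0.956), *Fbxo33* (Pearson r 0.925) and *Myo1g* (Pearson r 0.914), among 6856 genes with a mean of 5 RPKM or more. Those most like *Gfi1b* were *Dtd2* (Pearson r 0.949), *Ndfip1* (Pearson r 0.911) and *Tlcd2* (Pearson r 0.897). These correlations describe 15 libraries that differ in depth and in the cells they hold, and carry no test.

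The members work with partners, here 13 genes of RUNX, E protein, LDB1, ETO and LSD1 complexes, of which limma called 0 of 13 tested in Tie2-Ezh2-KO against WT, 0 of 13 in Vav-Ezh2-KO against WT and 1 of 13 between the knockouts (all genes 2.73%, 0.00733% and 3.51%, unadjusted p under 0.05 for 1, 0 and 2, all genes 11%, 7.93% and 16.6%, called by limma-voom 0, 0 and 1, median log2 difference -0.02, -0.09 and 0.07, all genes 0.01, -0.02 and 0.04). The called gene was *Runx1t1*, an ETO-family corepressor, at 0.628, 0.456, 0.989, 1.11 and 0.406 RPKM in Tie2-Ezh2-KO and 0.0668, 0.0630, 0.0258, 0.202 and 0.0556 in Vav-Ezh2-KO. WT libraries had 0.153, 0.376 and 0.332 in Tie2-Ezh2-WT and 0.0779 and 0.160 in Vav-Ezh2-WT, so all Tie2-Ezh2-KO libraries were above all others. Between the knockouts it was higher in Tie2-Ezh2-KO by log2 1.66 (SE 0.30, 95% interval 1.02 to 2.30, limma adjusted p = 0.00586, 5 of 5 libraries above all of the other group), a call kept under 19 of 20 alternatives, among them all 10 that left out 1 library. *Runx1t1* lost the call between the knockouts with each knockout set against WT of its own Cre line (log2 1.07, limma adjusted p = 0.726). The size of the *Runx1t1* difference, from 3 to 206 reads a library, depends on the value added, being 0.65 when 1 was added, 2.56 when 0.05 was added and 3.36 with limma-voom. Through LSD1, the product of *Kdm1a*, and the deacetylases of its complex GFI1 and GFI1B repress their targets. *Hdac2* averaged 181 RPKM in WT, 173 in Tie2-Ezh2-KO and 176 in Vav-Ezh2-KO. *Hdac1* averaged 176 RPKM in WT, 174 in Tie2-Ezh2-KO and 166 in Vav-Ezh2-KO. *Kdm1a* averaged 48.5 RPKM in WT, 46.1 in Tie2-Ezh2-KO and 43.5 in Vav-Ezh2-KO.

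Paralogs of the members numbered 11, of which limma called 1 of 9 tested in Tie2-Ezh2-KO against WT, 0 of 9 in Vav-Ezh2-KO against WT and 1 of 8 between the knockouts (all genes 2.73%, 0.00733% and 3.51%, unadjusted p under 0.05 for 3, 0 and 2, all genes 11%, 7.93% and 16.6%, called by limma-voom 0, 0 and 0, median log2 difference 0.12, 0.09 and 0.38, all genes 0.01, -0.02 and 0.04). The called gene was *Lmo1*, a relative of *Lmo2*, at 6.74, 8.98, 4.28, 6.44 and 7.60 RPKM in Tie2-Ezh2-KO and 3.54, 2.03, 1.94, 5.27 and 3.02 in Vav-Ezh2-KO, with WT at 3.05, 1.83 and 2.62 in Tie2-Ezh2-WT and 0.564 and 4.02 in Vav-Ezh2-WT. Every Tie2-Ezh2-KO library was above every WT library. It rose in Tie2-Ezh2-KO against WT by log2 1.59 (SE 0.39, 95% interval 0.77 to 2.41, limma adjusted p = 0.0410, 5 of 5 libraries above all of the other group). This call was kept under 11 of 22 alternatives and lost without replicate 10 or 12 of Tie2-Ezh2-WT, or 7, 9, 13 or 17 of Tie2-Ezh2-KO, each left out alone (limma adjusted p 0.0587 to 0.0932). *Lmo1* also lost the call against WT with quantile normalization, limma-voom, eBayes without trend and no filter on low values (log2 1.52 to 1.62, limma adjusted p 0.0522 to 0.0936), and without the 2 libraries with high visceral endoderm markers (log2 1.71, limma adjusted p = 0.101). Between the knockouts *Lmo1* was higher in Tie2-Ezh2-KO by log2 1.11 (SE 0.28, 95% interval 0.52 to 1.70, limma adjusted p = 0.0389, 4 of 5 libraries above all of the other group). That call was kept under 9 of 21 alternatives and lost without replicate 7, 13 or 17 of Tie2-Ezh2-KO, or 1, 9, 10 or 28 of Vav-Ezh2-KO, each left out alone (limma adjusted p 0.0597 to 0.0978). *Lmo1* also lost the call between the knockouts with limma-voom, eBayes without trend, no filter on low values and all 15 libraries in one fit (log2 1.11 to 1.18, limma adjusted p 0.0534 to 0.112), and with each knockout set against WT of its own Cre line (log2 0.55, limma adjusted p = 0.986). *Gata1*, the erythroid and megakaryocytic GATA factor, was the most abundant paralog, with means of 168 RPKM in WT, 178 in Tie2-Ezh2-KO and 185 in Vav-Ezh2-KO. *Mybl2* averaged 26.5 RPKM in WT, 29.6 in Tie2-Ezh2-KO and 25.5 in Vav-Ezh2-KO. *Lmo4* averaged 15.9 RPKM in WT, 15.2 in Tie2-Ezh2-KO and 22.7 in Vav-Ezh2-KO.

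Other factors of hemogenic endothelium numbered 12, with 10 in the table (*Sox17* and *Foxc2* were not analysed here), of which limma called 1 of 7 tested in Tie2-Ezh2-KO against WT, 0 of 6 in Vav-Ezh2-KO against WT and 1 of 7 between the knockouts (all genes 2.73%, 0.00733% and 3.51%, unadjusted p under 0.05 for 3, 2 and 4, all genes 11%, 7.93% and 16.6%, called by limma-voom 0, 0 and 1, median log2 difference 0.48, -0.14 and 0.74, all genes 0.01, -0.02 and 0.04). *Etv2*, the ETS factor that starts the blood and endothelial program, stood at 0.642, 1.09 and 0.837 RPKM in Tie2-Ezh2-WT, 0.705 and 0.430 in Vav-Ezh2-WT, 1.80, 3.25, 1.29, 3.13 and 2.49 in Tie2-Ezh2-KO and 2.94, 0.984, 1.47, 0.415 and 1.63 in Vav-Ezh2-KO. It rose in Tie2-Ezh2-KO against WT by log2 1.43 (SE 0.31, 95% interval 0.77 to 2.10, limma adjusted p = 0.0204, 5 of 5 libraries above all of the other group). The size depends on the value added, being 0.93 when 1 was added. The *Etv2* call was kept under 15 of 22 alternatives and lost without replicate 4 or 6 of Vav-Ezh2-WT, or 13 or 17 of Tie2-Ezh2-KO, each left out alone (limma adjusted p 0.0526 to 0.0585). *Etv2* also lost the call against WT with limma-voom (log2 1.66, limma adjusted p = 0.0725), without the 2 libraries with high visceral endoderm markers (log2 1.48, limma adjusted p = 0.0775), and with WT of its own Cre line only (log2 1.25, limma adjusted p = 0.164). *Mecom*, a stem cell factor, had 33, 36, 41, 73 and 9 reads in Tie2-Ezh2-KO and 0, 0, 0, 7 and 7 in Vav-Ezh2-KO, with WT at 2, 33 and 79 in Tie2-Ezh2-WT and 0 and 51 in Vav-Ezh2-WT. It was higher in Tie2-Ezh2-KO by log2 1.29 (SE 0.29, 95% interval 0.66 to 1.92, limma adjusted p = 0.0240, 4 of 5 libraries above all of the other group), a size that depends on the value added, and passed the filter through Tie2-Ezh2-KO libraries alone. That size was 0.41 when 1 was added, 2.45 when 0.05 was added and 4.76 with limma-voom. The *Mecom* call was kept under 11 of 20 alternatives and lost without replicate 7, 11 or 13 of Tie2-Ezh2-KO, or 1, 9, 10 or 28 of Vav-Ezh2-KO, each left out alone (limma adjusted p 0.0557 to 0.0654). *Mecom* also lost the call between the knockouts with quantile normalization (log2 1.1, limma adjusted p = 0.0810), and with each knockout set against WT of its own Cre line (log2 1.08, limma adjusted p = 0.874). *Hhex* averaged 39.4 RPKM in WT, 30.4 in Tie2-Ezh2-KO and 40.2 in Vav-Ezh2-KO. *Id1* averaged 23.6 RPKM in WT, 22.8 in Tie2-Ezh2-KO and 18.5 in Vav-Ezh2-KO. *Sox18* averaged 2.43 RPKM in WT, 2.61 in Tie2-Ezh2-KO and 0.775 in Vav-Ezh2-KO.

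Hematopoietic genes on which these factors are known to act numbered 11, of which limma called 1 of 11 tested in Tie2-Ezh2-KO against WT, 0 of 11 in Vav-Ezh2-KO against WT and 0 of 11 between the knockouts (all genes 2.73%, 0.00733% and 3.51%, unadjusted p under 0.05 for 4, 1 and 5, all genes 11%, 7.93% and 16.6%, called by limma-voom 1, 0 and 0, median log2 difference -0.13, -0.10 and 0.11, all genes 0.01, -0.02 and 0.04). *Mpo*, the myeloperoxidase gene of granulocyte precursors, stood at 1115, 1506 and 1204 RPKM in Tie2-Ezh2-WT, 1776 and 1587 in Vav-Ezh2-WT, 873, 623, 1158, 643 and 1045 in Tie2-Ezh2-KO and 1832, 1330.0, 1125, 1751 and 1086 in Vav-Ezh2-KO. It fell in Tie2-Ezh2-KO against WT, by log2 -0.75 (SE 0.18, 95% interval -1.14 to -0.36, limma adjusted p = 0.0414, 4 of 5 libraries below all of the other group). The *Mpo* call was kept under 9 of 22 alternatives and lost without replicate 10 of Tie2-Ezh2-WT, 4 or 6 of Vav-Ezh2-WT, or 7, 9 or 13 of Tie2-Ezh2-KO, each left out alone (limma adjusted p 0.0655 to 0.117). *Mpo* also lost the call against WT with a pseudocount of 1, quantile normalization, no filter on low values, a common median and eBayes without trend (log2 -0.79 to -0.73, limma adjusted p 0.0506 to 0.114), without the 2 libraries with high visceral endoderm markers (log2 -0.85, limma adjusted p = 0.0748), and with WT of its own Cre line only (log2 -0.59, limma adjusted p = 0.312). *Nfe2* averaged 228 RPKM in WT, 230.0 in Tie2-Ezh2-KO and 213 in Vav-Ezh2-KO. *Klf1* averaged 145 RPKM in WT, 203 in Tie2-Ezh2-KO and 136 in Vav-Ezh2-KO. *Sfpi1*, the gene of PU.1, averaged 157 RPKM in WT, 185 in Tie2-Ezh2-KO and 141 in Vav-Ezh2-KO.

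Endothelial markers, which GFI1 and GFI1B help to silence, summed over 8 genes to 40.4, 45.2 and 45.3 RPKM in Tie2-Ezh2-WT and 42.5 and 49.9 in Vav-Ezh2-WT, and to 41.7, 40.4, 44.6, 54.2 and 41.1 in Tie2-Ezh2-KO and 45.1, 41.3, 27.3, 60.4 and 33.9 in Vav-Ezh2-KO. The sums of the groups overlapped, *Pecam1* was the most abundant in 11 of 15 libraries and *Esam* in replicates 7, 9, 11 and 13 of Tie2-Ezh2-KO, and *Cdh5* and *Emcn* were at 0 in Vav-Ezh2-KO replicate 9 and in no other library. Of these markers limma called 0 of 8 tested in Tie2-Ezh2-KO against WT, 0 of 8 in Vav-Ezh2-KO against WT and 0 of 8 between the knockouts (all genes 2.73%, 0.00733% and 3.51%, unadjusted p under 0.05 for 2, 0 and 4, all genes 11%, 7.93% and 16.6%, called by limma-voom 0, 0 and 0, median log2 difference 0.25, -0.27 and 0.44, all genes 0.01, -0.02 and 0.04). In Tie2-Ezh2-KO against WT 6 of 8 had a difference above 0, among them *Esam* (0.38, limma adjusted p = 0.414) and *Tek* (0.13, limma adjusted p = 0.937). *Pecam1* was below all WT libraries in all 5 Tie2-Ezh2-KO libraries (log2 -0.62, limma adjusted p = 0.150, exact permutation p = 0.00794), past the exact test for the gene alone but not past correction over all genes.

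Of the 3 primitive erythroid genes limma called 2 of 3 tested in Tie2-Ezh2-KO against WT, 0 of 3 in Vav-Ezh2-KO against WT and 2 of 3 between the knockouts (all genes 2.73%, 0.00733% and 3.51%, unadjusted p under 0.05 for 2, 0 and 2, all genes 11%, 7.93% and 16.6%, called by limma-voom 0, 0 and 2, median log2 difference 1.18, 0.28 and 1.29, all genes 0.01, -0.02 and 0.04). *Hba-x* stood at 38.4, 305, 339, 32.9 and 117 RPKM in Tie2-Ezh2-KO, with WT from 0.316 to 2.67 and Vav-Ezh2-KO from 0.697 to 8.51. It rose in Tie2-Ezh2-KO against WT by log2 6.33 (SE 0.62, 95% interval 5.01 to 7.66, limma adjusted p = 8.88e-05, 5 of 5 libraries above all of the other group), a call kept under 21 of 22 alternatives, among them all 10 that left out 1 library. *Hba-x* lost the call against WT with limma-voom (log2 6.38, limma adjusted p = 0.0787). Between the knockouts *Hba-x* was higher in Tie2-Ezh2-KO by log2 5.64 (SE 0.72, 95% interval 4.11 to 7.17, limma adjusted p = 0.000422, 5 of 5 libraries above all of the other group), a call kept under 21 of 21 alternatives, among them all 10 that left out 1 library. *Hbb-bh1* rose in Tie2-Ezh2-KO against WT by log2 1.18 (SE 0.29, 95% interval 0.56 to 1.81, limma adjusted p = 0.0441, 5 of 5 libraries above all of the other group). The *Hbb-bh1* call against WT was kept under 7 of 22 alternatives and lost without replicate 4, 10 or 12 of Tie2-Ezh2-WT, 4 or 6 of Vav-Ezh2-WT, or 7, 9 or 11 of Tie2-Ezh2-KO, each left out alone (limma adjusted p 0.0535 to 0.101). *Hbb-bh1* also lost the call against WT with a mean above 1 RPKM, limma-voom, a common median, no filter on low values and eBayes without trend (log2 1.13 to 1.18, limma adjusted p 0.0525 to 0.118), without the 2 libraries with high visceral endoderm markers (log2 1.24, limma adjusted p = 0.123), and with WT of its own Cre line only (log2 0.91, limma adjusted p = 0.246). Between the knockouts *Hbb-bh1* was higher in Tie2-Ezh2-KO by log2 1.29 (SE 0.31, 95% interval 0.64 to 1.94, limma adjusted p = 0.0302, 5 of 5 libraries above all of the other group), a call kept under 12 of 21 alternatives and lost without replicate 7 or 11 of Tie2-Ezh2-KO, or 1, 9 or 10 of Vav-Ezh2-KO, each left out alone (limma adjusted p 0.0575 to 0.0736). *Hbb-bh1* also lost the call between the knockouts with a common median, no filter on low values and eBayes without trend (log2 1.23 to 1.29, limma adjusted p 0.0669 to 0.0922), and with each knockout set against WT of its own Cre line (log2 0.60, limma adjusted p = 0.978). *Hbb-y* averaged 2.50 RPKM in WT, 4.75 in Tie2-Ezh2-KO and 3.24 in Vav-Ezh2-KO.

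Macrophage markers summed over 6 genes to 12.8, 19.5 and 10.3 RPKM in Tie2-Ezh2-WT and 15.5 and 20.3 in Vav-Ezh2-WT, and to 11.6, 7.63, 11.7, 12.8 and 11.7 in Tie2-Ezh2-KO and 18, 15.1, 16.8, 21.0 and 19.2 in Vav-Ezh2-KO. *Cd68* was the most abundant in all 15 libraries and *C1qa* was at 0 in every library. Of these markers limma called 0 of 5 tested in Tie2-Ezh2-KO against WT, 0 of 5 in Vav-Ezh2-KO against WT and 1 of 5 between the knockouts (all genes 2.73%, 0.00733% and 3.51%, unadjusted p under 0.05 for 2, 0 and 1, all genes 11%, 7.93% and 16.6%, called by limma-voom 0, 0 and 0, median log2 difference -0.39, -0.21 and -0.31, all genes 0.01, -0.02 and 0.04). *Cd68* was lower in Tie2-Ezh2-KO than in Vav-Ezh2-KO, by log2 -0.71 (SE 0.17, 95% interval -1.07 to -0.34, limma adjusted p = 0.0333, 5 of 5 libraries below all of the other group). The *Cd68* call was kept under 11 of 21 alternatives and lost without replicate 7, 11 or 17 of Tie2-Ezh2-KO, or 1, 26 or 28 of Vav-Ezh2-KO, each left out alone (limma adjusted p 0.0508 to 0.0940). *Cd68* also lost the call between the knockouts with no filter on low values, eBayes without trend and limma-voom (log2 -0.71 to -0.69, limma adjusted p 0.0513 to 0.0848), and with each knockout set against WT of its own Cre line (log2 -0.39, limma adjusted p = 0.978). Next in mean over all libraries, though not in each, were *Cx3cr1*, with a WT mean of 1.05 RPKM, *C1qb* with 0.261 and *Emr1* with 0.532.

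Megakaryocyte markers summed over 5 genes to 89.7, 187 and 42.2 RPKM in Tie2-Ezh2-WT and 234 and 66.4 in Vav-Ezh2-WT, and to 107, 231, 97.6, 69.3 and 78.1 in Tie2-Ezh2-KO and 145, 181, 75.0, 101 and 70.1 in Vav-Ezh2-KO. The groups overlapped, *Pf4* was the most abundant in 9 of 15 libraries and *Gp9* in the other 6, and *Gp6* was at 0 in 8 or more libraries. *Ppbp* averaged 3.32 RPKM in WT, 1.74 in Tie2-Ezh2-KO and 0.856 in Vav-Ezh2-KO. Of these markers limma called 1 of 5 tested in Tie2-Ezh2-KO against WT, 0 of 5 in Vav-Ezh2-KO against WT and 0 of 5 between the knockouts (all genes 2.73%, 0.00733% and 3.51%, unadjusted p under 0.05 for 1, 1 and 2, all genes 11%, 7.93% and 16.6%, called by limma-voom 0, 0 and 0, median log2 difference -0.04, -0.08 and 0.12, all genes 0.01, -0.02 and 0.04). *Gp1ba* fell in Tie2-Ezh2-KO against WT, by log2 -0.94 (SE 0.24, 95% interval -1.45 to -0.43, limma adjusted p = 0.0495, 4 of 5 libraries below all of the other group). The *Gp1ba* call was kept under 7 of 22 alternatives and lost without replicate 4 or 10 of Tie2-Ezh2-WT, 4 or 6 of Vav-Ezh2-WT, or 7, 9, 11 or 17 of Tie2-Ezh2-KO, each left out alone (limma adjusted p 0.0640 to 0.146). *Gp1ba* also lost the call against WT with a mean above 1 RPKM, a pseudocount of 1, eBayes without trend, no filter on low values and limma-voom (log2 -0.94 to -0.82, limma adjusted p 0.0538 to 0.163), without the 2 libraries with high visceral endoderm markers (log2 -0.76, limma adjusted p = 0.250), and with WT of its own Cre line only (log2 -0.89, limma adjusted p = 0.231).

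Visceral endoderm markers summed over 5 genes to 129, 3.59 and 1.60 RPKM in Tie2-Ezh2-WT and 3.23 and 5.26 in Vav-Ezh2-WT, so Tie2-Ezh2-WT replicate 4 stood apart in WT as replicate 7 did in Tie2-Ezh2-KO. *Apoa1* was the most abundant in 9 of 15 libraries, *Rbp4* in 3, *Afp* in 2 and *Amn* in 1, and *Apob* was at 0 in 8 or more libraries. Of these markers limma called 1 of 4 tested in Tie2-Ezh2-KO against WT, 0 of 4 in Vav-Ezh2-KO against WT and 1 of 4 between the knockouts (all genes 2.73%, 0.00733% and 3.51%, unadjusted p under 0.05 for 1, 0 and 2, all genes 11%, 7.93% and 16.6%, called by limma-voom 1, 0 and 1, median log2 difference 0.77, -1.05 and 1.82, all genes 0.01, -0.02 and 0.04). *Amn* rose in Tie2-Ezh2-KO against WT by log2 3.01 (SE 0.45, 95% interval 2.04 to 3.98, limma adjusted p = 0.00155, 5 of 5 libraries above all of the other group), a call kept under 22 of 22 alternatives, among them all 10 that left out 1 library. Between the knockouts *Amn* was higher in Tie2-Ezh2-KO by log2 3.42 (SE 0.33, 95% interval 2.72 to 4.13, limma adjusted p = 0.000149, 5 of 5 libraries above all of the other group), a call kept under 20 of 21 alternatives, among them all 10 that left out 1 library. *Amn* lost the call between the knockouts with each knockout set against WT of its own Cre line (log2 2.99, limma adjusted p = 0.153). No *Amn* read was found in 3 WT and 4 Vav-Ezh2-KO libraries, so both sizes depend on the value added, and between the knockouts *Amn* passed the filter through Tie2-Ezh2-KO libraries alone. The *Amn* sizes against WT and between the knockouts were 1.51 and 1.66 when 1 was added, and 5.78 and 6.61 with limma-voom. Leaving out both libraries with high sums, a choice made after seeing the data, left 0 of 10 members called by limma in Tie2-Ezh2-KO against WT (0 at an unadjusted p under 0.05). Of all 13840 genes tested without them 196 were called higher and 21 lower. Mesenchymal markers summed over 4 genes to 0.246 RPKM or less in every library and none was tested, *Col1a2* having the highest mean and *Col1a1*, *Col3a1* and *Pdgfra* being at 0 in 8 or more libraries. The part of these cells in the members' values was not tested.

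The promoters of *Gfi1* and *Gfi1b* are shown because these members differed between the knockouts, both in the same direction. The RefSeq promoter sequences used here (build GRCm38.p6) hold 14 windows of 300 bases for 8 of the 10 members, without an entry for *Lmo2* and *Fli1*. Letters bound by the members' own families were searched on both strands. They were AGATAA or TGATAA for GATA factors (in 18.61% of all 32851 windows), TGTGGT for RUNX1 (16.76%) and CAGATG or CAGCTG for TAL1 and LYL1 (30.57%). The others were AGGAAG or CGGAAG for ETS factors (46.47%), AATCAC for GFI1 and GFI1B (10.37%) and TAACTG or TAACGG for MYB (12.59%). Capitals mark the matches as they read on the strand printed, and no matches overlap here. The first *Gfi1* window (chr5:107724294-107724593, minus strand) holds CTTCCT and CTTCCG, ETS letters read from the opposite strand. The second (chr5:107725756-107726055, minus strand) holds none of the letters searched. The *Gfi1b* window (chr2:28621933-28622232, minus strand) holds TGATAA at bases 131 to 136.
Gfi1 window 1: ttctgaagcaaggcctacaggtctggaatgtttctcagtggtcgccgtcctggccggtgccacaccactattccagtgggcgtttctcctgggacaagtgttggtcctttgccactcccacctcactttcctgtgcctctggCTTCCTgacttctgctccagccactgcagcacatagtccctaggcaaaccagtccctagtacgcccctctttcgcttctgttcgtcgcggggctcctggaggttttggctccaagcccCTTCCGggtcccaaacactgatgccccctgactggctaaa
Gfi1 window 2: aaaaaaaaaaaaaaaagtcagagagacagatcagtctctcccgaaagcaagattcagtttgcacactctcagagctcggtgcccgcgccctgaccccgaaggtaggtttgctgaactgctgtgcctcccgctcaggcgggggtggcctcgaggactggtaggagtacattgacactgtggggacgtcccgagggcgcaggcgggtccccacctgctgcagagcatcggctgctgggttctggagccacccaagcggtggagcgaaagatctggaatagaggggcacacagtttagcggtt
Gfi1b: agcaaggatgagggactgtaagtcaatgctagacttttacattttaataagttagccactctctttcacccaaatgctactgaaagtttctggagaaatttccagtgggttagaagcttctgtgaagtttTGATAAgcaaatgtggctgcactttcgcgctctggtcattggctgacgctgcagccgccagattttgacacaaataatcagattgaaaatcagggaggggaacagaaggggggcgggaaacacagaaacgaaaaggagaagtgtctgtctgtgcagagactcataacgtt
Of the 14 member windows, 3 held GATA letters, 1 RUNX, 3 E-box, 4 ETS, 2 GFI and 1 MYB letters. The letters were chosen after the members' promoters had been looked at, and a match describes the sequence only.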

How the data were processed

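RNA of sorted E10.5 YS EMPs was sequenced by the authors, who aligned the reads to GRCm38 with TopHat2 2.0.13, counted them per gene with featureCounts (no version stated) and deposited RPKM on a linear scale for 17454 genes in 15 libraries. Reads on genes were recovered from the RPKM (577 genes were at 0 in all libraries), with the total of each library set by single-exon genes and the length of each gene taken as the shortest that gave whole reads. The authors' own test was DESeq2 on counts, which was not run here.

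Genes that exceeded 0.2 RPKM in 1 or more of the libraries compared were tested on log2(RPKM + 0.2) with limma 3.58.1 in R 4.3.3 (lmFit, eBayes with trend, Benjamini-Hochberg over all genes tested, threshold 0.05), 5 libraries against 5. Single genes also went through an exact permutation test, two-sided, in Python 3.11.15. Members were described by counts and medians beside those of all genes. No pair or block was fitted, since replicate numbers name individual YS. Alternatives were pseudocounts of 1 and 0.05, other filters, quantile normalization, a common median, eBayes without trend, array weights, all 15 libraries in one fit, WT of the same Cre line only, leaving out each library in turn and, added after seeing the data, limma-voom on recovered reads, the exact test under other settings and leaving out 2 libraries with high visceral endoderm markers. The scripts were tested on simulated data.

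All members were named, with every gene of the other lists past the threshold, the 3 most abundant of the rest of each list, and the 3 genes most like *Runx1* and the 3 most like *Gfi1b* over the libraries. The members and lists were chosen with earlier results of these data known.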

Additional observations from a re-analysis of the deposited data

Results flagged for a closer look

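A library far from the rest of its group of 5 was looked for in 54 groups of values (each member, *Ezh2* and each marker sum in WT and in each knockout), and 5 were found. Chance gives about 1 in 20 groups only if values are independent and normally spread, which was not tested here. The highest *Lmo2* value in Tie2-Ezh2-KO, 217 RPKM in replicate 11, was far above the other 4 libraries. In the same group the lowest sum of macrophage markers (7.63 RPKM, replicate 9) and the highest sum of megakaryocyte markers (231 RPKM, replicate 9) were far from the others. The sum of visceral endoderm markers was far above the rest in 1 WT library (129 RPKM, Tie2-Ezh2-WT replicate 4) and in 1 Tie2-Ezh2-KO library (191 RPKM, replicate 7).

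The effects of the knockouts, set against the same WT libraries, differed for *Gfi1* by a log2 of 1.63 (limma adjusted p = 0.00906) and for *Gfi1b* by 0.57 (limma adjusted p = 0.0300). With the WT libraries of each Cre line as its own control the log2 differences were 2.12 and 0.56, and neither passed the threshold (limma adjusted p = 0.232 and 0.667).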

How the results depend on the processing

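Single members kept their direction and their side of the threshold in 205 of 218 alternative fits for Tie2-Ezh2-KO against WT, 196 of 208 for Vav-Ezh2-KO against WT and 191 of 208 between the knockouts. In the last, 11 lost the call (1 of *Gfi1*, 10 of *Gfi1b*). The direction turned in 13, 12 and 6 fits, all of uncalled members. With WT of the same Cre line only, Tie2-Ezh2-KO against WT gave log2 0.13 for *Gfi1* and 0.0343 for *Lyl1*, and Vav-Ezh2-KO against WT -0.0728 for *Tal1*. The same choice between the knockouts gave 0.0438 for *Runx1* and 0.67 for *Erg*. Array weights gave 0.0588 for *Gfi1* and limma-voom 0.0618 for *Lyl1* in Tie2-Ezh2-KO against WT. Leaving out both libraries with high visceral endoderm markers gave 0.0283 for *Fli1*. In Vav-Ezh2-KO against WT *Runx1* was 0.0189 with quantile normalization and 0.0127 with a common median. Leaving out 1 library at a time, Tie2-Ezh2-KO against WT ranged from -0.32 to 0.13 for *Gfi1* and -0.25 to 0.0969 for *Lyl1*. Vav-Ezh2-KO against WT ranged from -0.0948 to 0.0835 for *Runx1*, -0.00900 to 0.23 for *Tal1* and -0.11 to 0.15 for *Fli1*. Between the knockouts the ranges were -0.32 to 0.17 for *Erg*, -0.31 to 0.0197 for *Gata2* and -0.19 to 0.0238 for *Myb*. Genes called in Tie2-Ezh2-KO against WT numbered 240 with a mean above 1 RPKM (fewer genes tested), 187 with WT of the same Cre line and 217 without both libraries (fewer samples), and 262 to 438 when 1 library was left out. In Vav-Ezh2-KO against WT they numbered 2 with a common median and with WT of the same Cre line, 0 by limma-voom and 1 to 2 when 1 library was left out, where 1082 genes had an unadjusted limma p under 0.05. Between the knockouts they numbered 765 with array weights, 26 with each Cre line's own WT, and 320 (without Vav-Ezh2-KO replicate 28) to 969 (without Tie2-Ezh2-KO replicate 9). Members called between the knockouts were 1 with no filter, a mean above 1 RPKM, a common median or eBayes without trend, 0 by limma with each Cre line's own WT (unadjusted p under 0.05 for 2 members), and 1 to 2 when 1 library was left out. Of all genes, no filter called 301 higher and 82 lower of 16495, and a mean above 1 RPKM 263 and 116 of 9928. A common median called 317 and 132 of 14120, eBayes without trend 340 and 71 of 14120, and each Cre line's own WT 23 and 3 of 14394. Members with an exact permutation p under 0.05 were 1 (Tie2-Ezh2-KO against WT) and 2 (Vav-Ezh2-KO against WT) with a common median, and 0 to 1, 1 to 2 and 3 to 4 in the 3 comparisons when 1 library was left out. Between the knockouts they were 2 to 3 over the 3 settings that kept all libraries. In the main fit 10.2%, 7.3% and 15% of all genes passed this test in the 3 comparisons. Except where fewer genes or samples are named, the cause was not tested. *Gfi1* and *Erg*, at 0 to 108 reads a library, are the members whose values depth limits.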
